A study of Mus musculus with 24 samples.

Results

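The 36 genes described here make ribosomes: they encode subunits and factors of RNA polymerase I, the proteins of the small nucleolar ribonucleoproteins (snoRNPs), abundant proteins of the nucleolus and the assembly factors of the small and large ribosomal subunits. They were chosen by name from a fixed list, and all 36 are on the array, among 18440 protein-coding genes that a probe could be assigned to. Their 58 probes cover 19 genes with 1 probe and 17 genes with several, and each gene is represented by its brightest probe over all 24 arrays. The probes of all 36 genes were well above background on each of the 24 arrays, and none was saturated, so every value below is a measured level.

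The cells were Ku70-/- mouse embryonic fibroblasts (MEFs), which lack a subunit of the DNA end-binding protein Ku and so join double-strand breaks poorly. Potassium bromate (KBrO3) is an oxidizing agent that damages DNA bases, and bisphenol A (BPA) is a plasticizer with weak estrogen-like activity. In the first array set, of 15 arrays, control cells were untreated. KBrO3 cells received 20 mM KBrO3 for 1 hr and then repaired for 3 or 23 hr (the 4 hr and 24 hr groups). Co-exposed cells received 150 μM BPA for 1 hr before the same KBrO3 treatment, during it and throughout repair. In the second set, of 9 arrays, untreated cells were compared with cells given 150 μM BPA alone, sampled at 4 and 24 hr. The labels give these times as the length of exposure to BPA alone, whereas the Methods give exposures 1 hr longer. Every group had 3 arrays from 3 biological replicates. Every group, controls included, carried the deletion of Ku70 (Xrcc6) and came from immortalized cells, so no comparison here bears on the deletion itself. The set 1 controls are labelled with 1 time point, so the 24 hr groups were compared with untreated cells of 4 hr.

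As background, RNA polymerase I transcribes the long precursor of the ribosomal RNAs in the nucleolus. Box C/D snoRNPs guide the methylation and H/ACA snoRNPs the pseudouridylation of that precursor, and large complexes, the small subunit processome among them, fold and cut it while ribosomal proteins join. The genes for these factors are usually transcribed together, they are known for responding to growth signals and to the transcription factor MYC, and the nucleolus is known as a sensor of stress.

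The share of spots well above background lay between 57.7% and 68.1% on the arrays of the first set and between 76.4% and 79.4% on those of the second. The residual spread between replicate arrays was smaller in the first set, with a median SD over these 36 genes of 0.0762 in log2 units, whereas it was 0.267 in the second. All KBrO3 4 hr arrays shared slide 2 and all co-exposure 4 hr arrays shared slide 3. The estimated correlation within slides was 0.634 for set 1 and 0.115 for set 2. The SD and the p-values of set 1 thus rest partly on spread within a slide. Whether sharing a slide made that spread smaller was not tested. Of 8 fibroblast markers, 7 were above background on all 15 arrays of the first set and 8 on all 9 arrays of the second. The leukocyte marker Ptprc and the endothelial marker Pecam1 were above background on no array of either set, and the epithelial marker Cdh1 on none of the first, while Cd68, Cd3e, Krt5 and Tek were above background on all arrays of both sets. Cd79a, Krt8, Krt18 and Kdr were also above background on all 9 arrays of the second set, so that 3 of 5 epithelial markers were. The probe for Xrcc6, the gene of Ku70, was above background on all arrays, and since its place relative to the deleted part is not given in the sources used here, it checks nothing. The control arrays of the first set lay on slides 1 and 2. Slide 2 also held the KBrO3 4 hr arrays, and neither held a KBrO3 24 hr or co-exposure array.

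At 4 hr after KBrO3, nearly the whole set of ribosome biogenesis genes was higher than in untreated cells. In this comparison 34 of 36 genes rose and 1, Imp3, fell, while Nop10 did not pass the test (limma, with p adjusted by Benjamini-Hochberg across every probe tested, and "called" throughout for an adjusted p under 0.05). The median log2 fold change over the 36 genes was 2.00, against 0.02 over all 14105 protein-coding genes tested. Of those genes 72.7% were called, 34.5% as higher and 38.1% as lower, so a call by itself is common here and the size and the direction are what the 36 genes are described by. More than 2-fold higher levels were found for 32 of the 36 genes and more than 4-fold higher levels for 18. At the stricter thresholds that the Methods give (a Bonferroni p under 0.01 with at least a 1.5-fold change), 34 of the 36 genes were higher and 1 was lower, against 14.7% and 16.5% of all genes, or 31.2% in either direction.

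The largest rise at 4 hr was that of Rrp12, a factor of pre-ribosome export and of both subunit precursors. Its log2 signal, relative to the array's 75th percentile, was 1.03, 0.98 and 0.91 on the KBrO3 arrays and -2.16, -2.28 and -2.12 on the control arrays. The groups were far apart, and the difference was 3.16 ± 0.087 (log2 fold change ± SE, n = 3 per group, adjusted p = 1.22e-11), or 8.94-fold. Rrp9, which binds the U3 small nucleolar RNA, read 3.1, 3.14 and 3.12 after KBrO3 and 0.25, 0.23 and 0.36 in controls, a 7.15-fold difference (adjusted p = 3.74e-12). Its lowest treated array was thus well above its highest control array.

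Nolc1, a nucleolar chaperone of snoRNPs, read 5.06, 5.09 and 5.09 after KBrO3 against 1.99, 2.25 and 2.30 in controls, or 7.47-fold more (adjusted p = 3.37e-11). Nop2, a methyltransferase of the large subunit RNA, read 6.27, 6.24 and 6.23 against 3.48, 3.56 and 3.51, or 6.63-fold more (adjusted p = 2.07e-13). For both genes, treated and control arrays did not overlap. This held for 35 of the 36 genes, 34 of them higher and 1 lower, and in all genes tested the groups did not overlap for 80.7%, with 39.2% higher and 41.5% lower.

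Every role took part in the rise. The 4 RNA polymerase I subunits rose, by log2 fold changes from 0.69 (Polr1c, shared with RNA polymerase III) to 2.64 (Polr1b, the second largest subunit), with Polr1a, the largest subunit, at 1.17. The 4 RNA polymerase I factors rose too, from 1.28 for Rrn3, the factor that brings the polymerase to the promoter, through 1.36 for Tcof1 and 1.63 for Ubtf, the architectural factor of ribosomal DNA, to 1.99 for Mybbp1a. The 3 proteins of the box C/D core rose, with the methyltransferase Fbl at 1.42 below its partners Nop56 at 2.15 and Nop58 at 2.24.

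Of the 4 H/ACA proteins, 3 rose, with the pseudouridine synthase Dkc1 at 2.28, Nhp2 at 2.00 and Gar1 at 1.40, whereas Nop10, the smallest, was at 0.03 ± 0.058 (adjusted p = 0.67). Nop10 read 2.78, 2.82 and 2.77 after KBrO3 and 2.77, 2.76 and 2.74 in controls, so its groups overlapped. Under quantile normalization it was at -0.17 and called lower (adjusted p = 0.0066). The nucleolar proteins Ncl, Npm1, Nolc1 and Gnl3 rose by 1.21 (Npm1) to 2.90 (Nolc1). In the small subunit processome 7 of 8 genes rose, with a median of 2.38 for the 8, and all 9 large subunit assembly genes rose, from 1.00 for Bop1 to 2.73 for Nop2.

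Imp3, which with Imp4 and Mphosph10 forms a small complex that joins U3 to the precursor RNA, was the exception. It read 2.50, 2.47 and 2.49 after KBrO3 and 3.12, 3.14 and 3.04 in controls, and fell by 0.61 ± 0.050 (SE) on the log2 scale (adjusted p = 2.23e-07). With normexp background correction the difference was -0.33 and not called (adjusted p = 0.068). Its partner Imp4 was measured at the dimmest level of the 36 genes, at -1.48, -1.42 and -1.49 after KBrO3 and -4.09, -4.26 and -4.0 in controls, a difference of 2.65. That difference was 0.74 (adjusted p = 0.12) when the raw signal was background corrected with normexp, and Imp4 is therefore a gene whose size of change depends on how background is treated.

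**Figure D1:**
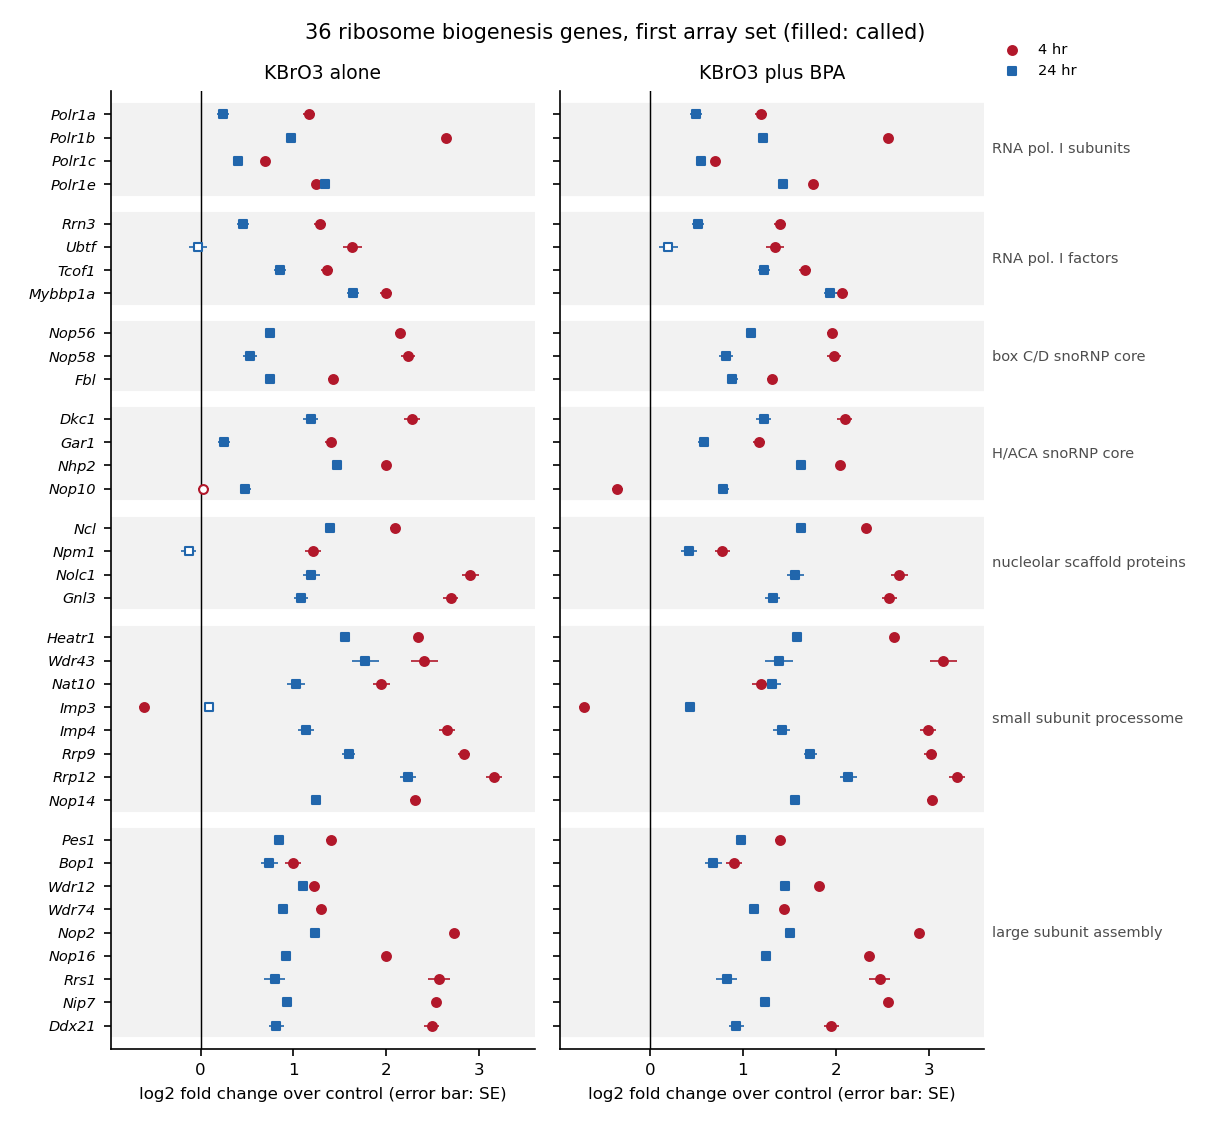
Log2 fold change (x axis, relative to the untreated arrays of the first set, error bars SE) of the 36 genes grouped by role on the y axis, for KBrO3 alone (left) and KBrO3 plus BPA (right) at 4 hr (circles) and 24 hr (squares). Filled symbols passed the test. Nearly all symbols lie right of 0, the 4 hr circles mostly right of the 24 hr squares, and Imp3 at 4 hr lies left of 0 in both panels, as does Nop10 at 4 hr in the right one.

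By 24 hr after KBrO3 the rise was smaller but still covered most of the genes. Relative to control, 33 of 36 genes were higher and none was lower, and Ubtf, Npm1 and Imp3 did not pass the test. The median log2 fold change was 0.93, against -0.07 over all genes tested, of which 69.4% were called, 31.3% as higher and 38.1% as lower. The treated arrays lay above all control arrays for 34 genes and below them for none, against 33.1% and 39.9% of all genes, or 72.9% in either direction. Levels more than 2-fold above control were found for 16 of the 36 genes. With the thresholds of the Methods 25 genes were higher and none lower, against 7.98% and 12% of all genes, or 20% in either direction.

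Rrp12 was again the highest, at 0.07, -0.02 and 0.08 on the 24 hr arrays, or 4.69-fold over control (adjusted p = 5.97e-10). Wdr43, a processome protein, read 1.77, 1.66 and 1.39 against -0.19, -0.16 and -0.15 in controls, a log2 fold change of 1.78 ± 0.15 (SE, adjusted p = 5.06e-07). Mybbp1a, a nucleolar binding partner of MYB and of the RNA polymerase I machinery, read 2.62, 2.58 and 2.70 against 0.86, 1.03 and 1.09, or 3.12-fold more. All 24 hr arrays of these genes were above all control arrays.

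Rrp9 completed the largest 4 with 1.83, 1.85 and 1.94, or 3.02-fold over control (adjusted p = 1.26e-09). Ubtf was at -0.03 ± 0.099 (adjusted p = 0.81), and its arrays overlapped those of controls. Npm1 was at -0.13 ± 0.082 by its brightest probe (adjusted p = 0.19), but its second probe gave 0.69 and was called higher, so the level of Npm1 at 24 hr rests on the probe chosen. Of the 14 called genes with several tested probes, 11 had all probes called in the same direction at 24 hr, and at 4 hr this held for 16 of 16.

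The direct comparison of 24 hr with 4 hr called all 36 genes, 33 as lower and 3 as higher, against 43.8% and 34% of all genes. The 4 hr and 24 hr arrays of KBrO3 lay on different slides, so time cannot be told apart from slide here. The median difference was -0.93 on the log2 scale, against -0.13 over all genes. The largest falls from 4 to 24 hr were -1.77 for Rrs1 and -1.71 for Nolc1, both assembly or chaperone proteins of the nucleolus. Among the smaller falls, also called, were 0.12 for Wdr12, a partner of Pes1 and Bop1, and 0.35 for Mybbp1a. Polr1e was higher at 24 hr than at 4 hr by 0.10 ± 0.039 (adjusted p = 0.043; 0.075 with a replicate block and 0.089 with slide as a random block), Nop10 by 0.45 and Imp3 by 0.70. Under quantile normalization the falls of Polr1c, Ncl, Bop1 and Wdr12 turned into rises of at most 0.11, of which only that of Polr1c was called, and scaling to the array median turned that of Wdr12.

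**Figure D2:**
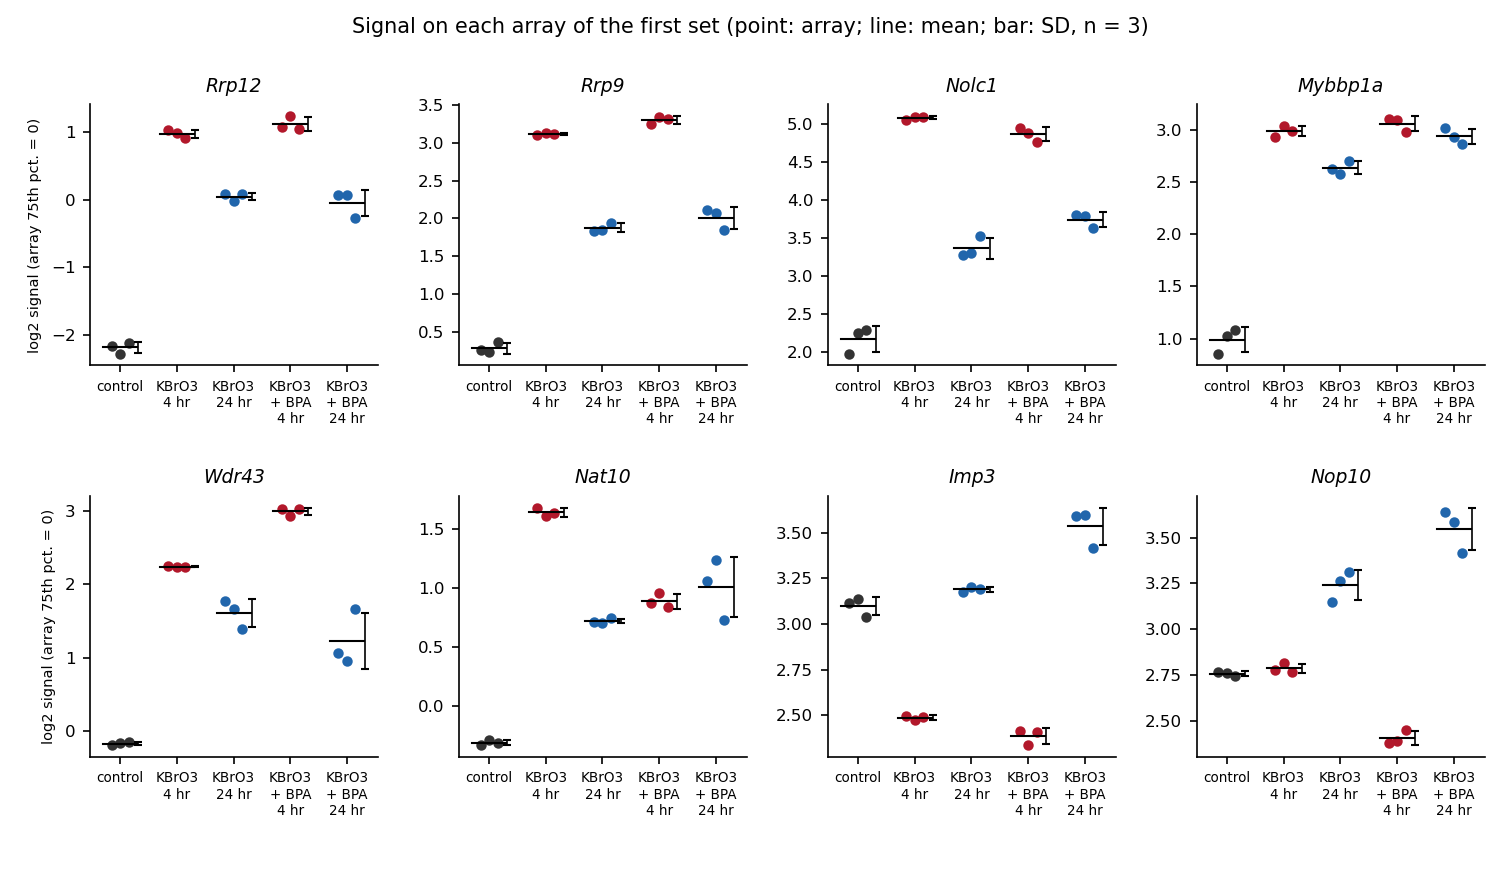
Log2 signal (y axis, relative to the 75th percentile of the array) on each array of the first set for 8 of the 36 genes, by treatment group on the x axis. Points are arrays, horizontal lines group means and vertical bars the SD of 3 arrays, with scales that differ between panels. For Rrp12, Rrp9 and Nolc1 the 4 hr groups lie above the 24 hr groups and these above control, Nat10 separates the KBrO3 4 hr arrays from the co-exposure 4 hr arrays, and Imp3 and Nop10 are at their highest in the co-exposure 24 hr group.

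For KBrO3 at 4 hr, 1 control array shared a slide with the 3 treated arrays. Within that slide all 35 called genes kept their sign, and the median difference over the 36 genes was 1.97. For KBrO3 at 24 hr and for co-exposure at both times no control array shared a slide with a treated array, and there the treatment cannot be told apart from the slide. Among the marker lists, the summed leukocyte markers (log2 of the sum of 6 genes) read -2.01 to -1.75 in controls and -0.39 to -0.31 at 4 hr after KBrO3, with Ptprc above background on no array. The summed fibroblast markers read 10.5 to 10.6 in controls, 10.4 to 10.5 at 4 hr and 9.35 to 9.53 at 24 hr after KBrO3, while in co-exposed cells the fibroblast sum read 9.99 to 10.1 at 4 hr and 8.78 to 9.02 at 24 hr and the leukocyte sum -0.76 to -0.73 and -1.02 to -0.87. After BPA alone the fibroblast sum read 9.32 to 9.58 at 4 hr and 9.07 to 9.30 at 24 hr. The controls of that set read 9.38 to 9.60. The endothelial sum read -3.23 to -2.79 in first-set controls and -2.52 to -2.42 at 4 hr of KBrO3. At 24 hr of co-exposure it read -3.52 to -3.28. Of 3 leukocyte markers tested, 1 was higher and 1 lower at 24 hr of co-exposure. Cd68 averaged -3.08 in controls and -1.21 there, Cd3e -3.41 and -4.08, and Cd79a -5.03 and -6.04. The part of these markers in the results was not tested. As the cultures were measured in bulk, fewer cells with a transcript and less transcript per cell cannot be told apart.

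Co-exposed cells were compared with the same control arrays, so their values are not independent of those above. At 4 hr, 34 of 36 genes were higher and Imp3 and Nop10 were lower, with a median log2 fold change of 1.97, against 0.01 over all genes, of which 80.4% were called, 39.7% as higher and 40.7% as lower. At 24 hr, 35 genes were higher and none lower, Ubtf alone did not pass the test, and the median was 1.22, against -0.06 over all genes with 72.5% called, 34.5% as higher and 38% as lower. With the thresholds of the Methods, 32 genes were higher and 1 lower at 4 hr, against 16.2% and 19.7% of all genes (35.9% in either direction), and 26 were higher and none lower at 24 hr, against 10.9% and 12.9% (23.8%). Treated and control arrays did not overlap for 34 higher and 2 lower genes at 4 hr, against 42.6% and 43% of all genes (85.6%), and for 35 higher and no lower genes at 24 hr, against 34.3% and 39.2% (73.4%).

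At 4 hr Rrp12 read 1.07, 1.23 and 1.05 with co-exposure, or 9.86-fold over control. Wdr43 read 3.02, 2.94 and 3.02, or 8.94-fold over control (adjusted p = 1.02e-09). Nop14, a processome protein, read 3.56, 3.70 and 3.61 against 0.47, 0.58 and 0.70 in controls, or 8.22-fold more. These and Rrp9, at 3.25, 3.35 and 3.31, did not overlap with control, and all 4 belong to the small subunit processome group, whose median was 3.01. Imp3 read 2.41, 2.34 and 2.41 and fell by 0.71 on the log2 scale (adjusted p = 4.56e-08). Nop10 read 2.38, 2.39 and 2.45 against 2.77, 2.76 and 2.74 in controls, a fall by 0.35 (adjusted p = 1.32e-04). With normexp background correction Nop10 was at -0.042 and not called (adjusted p = 0.81), and Imp3 was at -0.42 and called lower.

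At 24 hr of co-exposure Rrp12 read 0.06, 0.06 and -0.27, or 4.40-fold over control. Mybbp1a read 3.01, 2.93 and 2.87, or 3.85-fold over control, and Rrp9 read 2.11, 2.07 and 1.84, or 3.31-fold. Nhp2 read 4.51, 4.47 and 4.45 against 2.83, 2.86 and 2.86 in controls, or 3.08-fold more (adjusted p = 1.31e-12). The third array, which lay on a slide without any other array of the first set, was the lowest of its group for all 4 of these genes, and every array of the group was above every control array for these 4 genes. Between 4 and 24 hr of co-exposure 32 of 36 genes fell and 2 rose (Imp3 by 1.15 and Nop10 by 1.14), against 47.4% and 37.1% of all genes, while Mybbp1a and Nat10 did not pass the test. Scaling to the array median, which moved the median of all genes in this comparison by 0.46, gave 20 falls and 5 rises. No slide held co-exposure arrays of both times. Slide as a block, which links them only through KBrO3 24 hr arrays, gave 30 falls and 3 rises.

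Adding BPA to KBrO3 was tested directly, as co-exposed minus KBrO3-only cells at the same time. At 4 hr, 12 of 36 genes were higher, 8 were lower and 16 did not pass the test, a share close to that of all genes, where 60.8% of all genes were called, 28.1% as higher and 32.7% as lower. The median difference was 0.02, against -0.02 over all genes. Scaling to the median, which moved the median of all genes by -0.14, gave 5 higher and 13 lower, and quantile normalization gave 13 higher and 6 lower, so the balance of this split is set by the scaling, and values are best read relative to each other.

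The genes with the largest differences at 4 hr in each direction were processome genes. Wdr43 was higher with BPA (3.02, 2.94 and 3.02) than without (2.25, 2.23 and 2.24), a difference of 0.75 ± 0.15 (log2, SE, adjusted p = 0.0011). Nop14 was higher by 0.73 ± 0.055, with arrays from 3.56 to 3.70 against 2.89 to 2.90 (adjusted p = 8.60e-07). Wdr12, at 2.48, 2.42 and 2.49 with BPA and 1.89, 1.87 and 1.84 without, was higher by 0.60. Polr1e was higher by 0.51, and in these 4 genes the groups did not overlap. Under the thresholds of the Methods 2 genes were called, both higher, against 2.8% of all genes higher and 3.2% lower.

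In the other direction, Nat10, the acetyltransferase of ribosomal RNA, was at 0.87, 0.96 and 0.83 with BPA and at 1.68, 1.61 and 1.63 without, a difference of -0.75 ± 0.095 (adjusted p = 4.27e-05). Ddx21, an RNA helicase of the nucleolus, read 2.81, 2.93 and 2.99 with BPA and 3.48, 3.43 and 3.42 without, a difference of -0.53. Npm1, a histone and ribosome chaperone, read 7.05, 7.04 and 7.02 with BPA and 7.50, 7.45 and 7.45 without, a difference of -0.43. Nop10 differed by -0.38, and again the groups did not overlap in any of these genes. In the snoRNP cores, 2 of 3 box C/D genes (Nop56 at -0.19 and Nop58 at -0.26) and 2 of 4 H/ACA genes (Gar1 at -0.22 and Nop10) were lower and none was higher. In the processome group 5 of 8 were higher and 1 lower, and in the large subunit group 4 of 9 higher and 1 lower. With so few genes per role, and with 28.1% of all genes higher and 32.7% lower, these counts are a description only. No KBrO3-only array of 4 hr shared a slide with a co-exposure array of 4 hr, so slide and BPA cannot be told apart there. The probe chosen also mattered. Of 10 called genes with several probes, 6 had all probes called in the same direction. Among the 10, 3 had a probe of the opposite sign and 1 a probe called in the other direction. Pes1, at -0.01 by its brightest probe, was at 1.11 by its other probe.

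At 24 hr more genes were higher than lower. With BPA added, 23 of 36 genes were higher and none was lower, against 28.5% and 21.9% of all genes (50.4% in either direction), and the median difference was 0.24, against 0.01 over all genes. The difference was above 0 for 33 genes and below it for Wdr43, Rrp12 and Bop1, and it was above 0 for 7120 of all 14105 genes. Normexp background correction left 2 genes called, both higher, with the median difference at 0.23. Quantile normalization gave 19 higher and 1 lower, and slide as a block 27 higher and 1 lower. Scaling to the median, which moved the median of all genes by 0.17, gave 29 higher and none lower. Each difference was small, and none reached the thresholds of the Methods, which 7.44% of all genes did. Npm1 was highest, at 6.65, 6.87 and 6.52 with BPA and 6.26, 6.08 and 6.05 without, a difference of 0.55 ± 0.082 (adjusted p = 1.79e-04). Tcof1, at 4.52, 4.49 and 4.33 with BPA and 4.05, 4.05 and 4.14 without, was higher by 0.37 (adjusted p = 6.54e-04), again with no overlap. Nolc1, at 3.81, 3.79 and 3.63 against 3.27, 3.31 and 3.53, differed by 0.37 by its brightest probe, but its second probe gave -0.45 and was called lower. Of 9 called genes with several probes only 2 had all of them called in the same direction, and 3, Nolc1 and Polr1a among them, had a probe called in the other.

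On the slide that held 2 arrays of each treatment, all 23 called genes kept their sign, with a median difference of 0.29. Wdr43, highest among the differences at 4 hr, was at -0.38 ± 0.15 at 24 hr (adjusted p = 0.052), with co-exposed arrays at 1.06, 0.95 and 1.66 that overlapped the KBrO3-only arrays, at 1.77, 1.66 and 1.39. In the snoRNP cores 2 of 3 box C/D genes and 3 of 4 H/ACA genes were higher at 24 hr and none was lower, with Nop56 at 0.35, Nop58 at 0.29, Gar1 at 0.33 and Nop10 at 0.30.

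**Figure D3:**
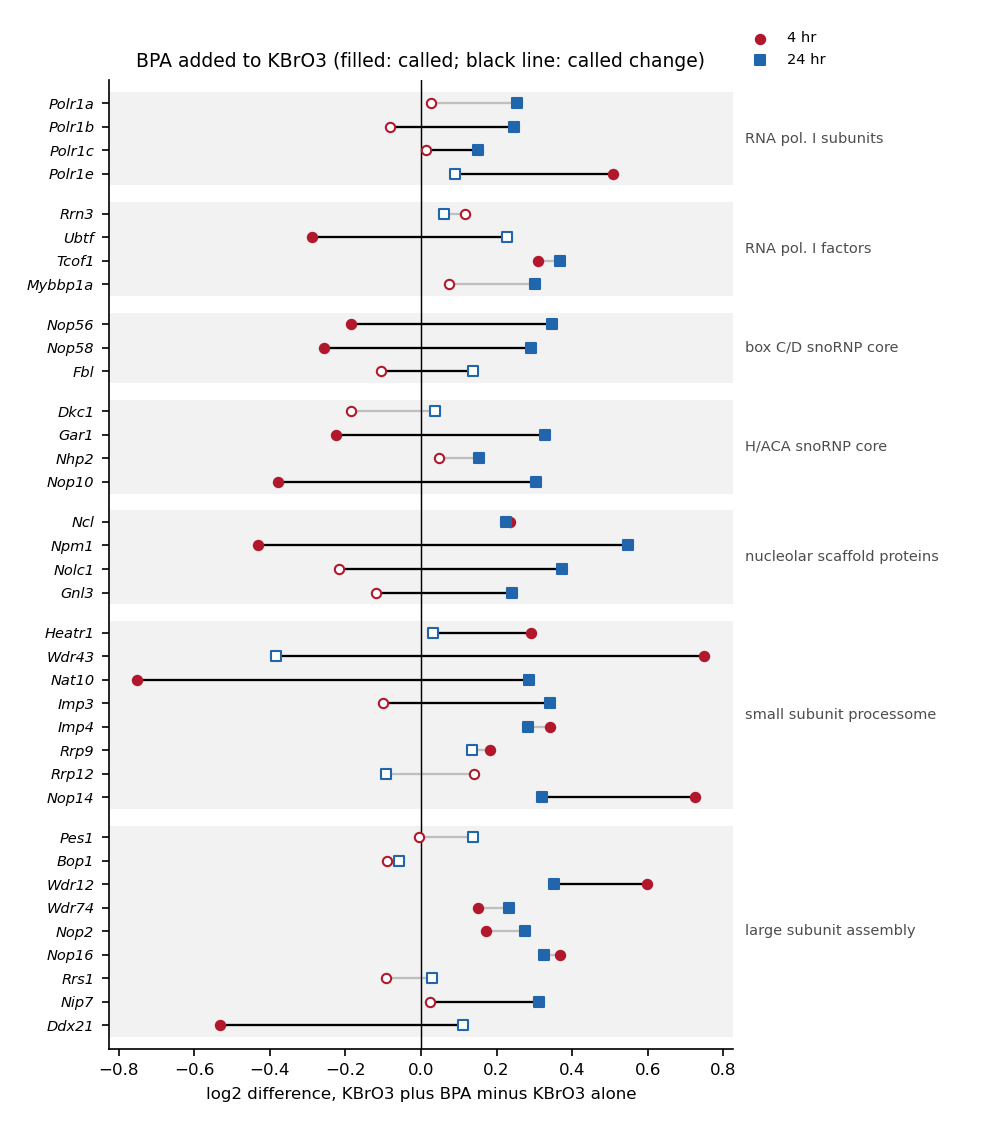
Log2 difference (x axis) between co-exposed and KBrO3-only cells at 4 hr (circles) and 24 hr (squares) for the 36 genes grouped by role on the y axis. Filled symbols passed the test, and a black line joins the times of a gene whose difference changed between them. At 4 hr the symbols spread from -0.75 (Nat10) to 0.75 (Wdr43), and at 24 hr all filled squares lie right of 0.

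The change of the BPA-added difference from 4 to 24 hr was itself tested as an interaction. It was called for 20 of 36 genes, 15 toward higher and 5 toward lower values at 24 hr, against 31.4% and 26% of all genes. The split was 25 to 1 with scaling to the median, which moved the median of all genes by 0.31, and 11 to 7 with quantile normalization. The largest changes were -1.13 ± 0.21 for Wdr43 (adjusted p = 8.64e-04), 1.04 ± 0.13 for Nat10 (adjusted p = 7.32e-05), 0.98 ± 0.12 for Npm1 (adjusted p = 3.97e-05) and 0.68 ± 0.082 for Nop10 (adjusted p = 4.17e-05). For Wdr43 the second probe gave -0.06 and was not called, and for Npm1 it gave 0.18 and was not called, whereas Nat10 and Nop10 have 1 tested probe each. None of the 36 changes passed the thresholds of the Methods, which 4.91% of all genes did.

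After BPA alone, on the second set of arrays, most fold changes were above 0, but few single genes passed the test. At 4 hr the fold change was above 0 for 36 of 36 genes, 4 were called (Gar1, Rrp9, Rrs1 and Heatr1), and none was lower, where 4.67% of all 15746 genes tested were called, 3% as higher and 1.67% as lower. At 24 hr it was above 0 for 35 of 36 genes, and 7 were called higher (Polr1a, Nop56, Fbl, Nhp2, Rrp9, Nop2 and Rrs1), where 4.31% of all genes were called, 1.83% as higher and 2.48% as lower. Over all 15746 genes tested, the fold change was above 0 for 7083 at 4 hr and 8169 at 24 hr. The medians over the 36 genes were 0.52 and 0.71 on the log2 scale, against -0.06 and 0.02 over all genes. Both times were compared with the same 3 control arrays, so a low or high control array moves both. Of the 7 genes called at 24 hr, Polr1a and Nop56 have several tested probes. Neither had all of them called in the same direction, and 1 had a probe of the opposite sign.

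Gar1 read 2.07, 1.69 and 2.07 at 4 hr of BPA and 0.99, 0.78 and 1.14 in controls, a difference of 0.97 ± 0.20 (log2, SE, adjusted p = 0.028) or 1.96-fold. Rrp9 read 0.70, 0.33 and 0.69 against -0.36, -0.40 and -0.35, or 1.92-fold more (adjusted p = 0.029). Rrs1, a factor that brings the 5S ribonucleoprotein into the large subunit, read 1.80, 1.47 and 1.76 against 0.60, 0.72 and 0.98, or 1.88-fold more (adjusted p = 0.038). The groups did not overlap for any of them, nor for Heatr1, a processome protein that also supports RNA polymerase I, which differed by 0.84 (adjusted p = 0.040). Nolc1 and Nip7 had fold changes as large, 1.22 ± 0.37 and 0.98 ± 0.30, but did not pass the test (adjusted p = 0.11 for both). Of the called genes only Heatr1 has several tested probes. These were not all called, and a probe had a fold change of the opposite sign.

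At 24 hr of BPA, Nhp2 read 3.52, 3.16 and 2.68 against 2.21, 2.13 and 1.70 in controls, a difference of 1.11 ± 0.25 (adjusted p = 0.049) or 2.16-fold. Rrp9 read 0.72, 0.78 and 0.41, or 2.01-fold over control (adjusted p = 0.026), and Rrs1 read 1.59, 1.96 and 1.65, or 1.95-fold (adjusted p = 0.035). Again treated and control arrays did not overlap. In each of the 2 BPA comparisons 22 of 36 genes had all treated arrays above all control arrays, against 13.3% of all genes at 4 hr and 14% at 24 hr. None had all treated arrays below all control arrays, against 15.8% and 11.3%, and in either direction the groups did not overlap for 29.1% and 25.3% of all genes.

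These calls were close to the threshold. With slide as a block, the replicate number as a block, normexp, or a fit of the compared groups alone, no gene was called at either time, and with scaling to the median 0 and 1 were. Slide as a random block gave 4 and 9, and quantile normalization 4 and 5. Leaving out any 1 of the 9 arrays gave 0 to 3 called genes at 4 hr and 0 to 2 at 24 hr, and at the thresholds of the Methods none was called at either time, against 0.114% of all genes at 4 hr (0.108% higher and 0.00635% lower) and 0.0318% at 24 hr (0.00635% higher and 0.0254% lower). The arrays that shared a slide with a control array had median differences over the 36 genes of 0.63 at 4 hr and 0.67 and 0.84 at 24 hr, and all called genes kept their sign within slides. None of the 36 genes was called between 24 and 4 hr of BPA, where 4.3% of all genes were, and SEs ran from 0.17 to 0.47. The 24 hr arrays lay above all 4 hr arrays for 6 genes and below them for 1, against 17.7% and 13.1% of all genes. Tcof1, the factor of RNA polymerase I named treacle, was the single gene below 0 at 24 hr, at -0.02 ± 0.47.

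**Figure D4:**
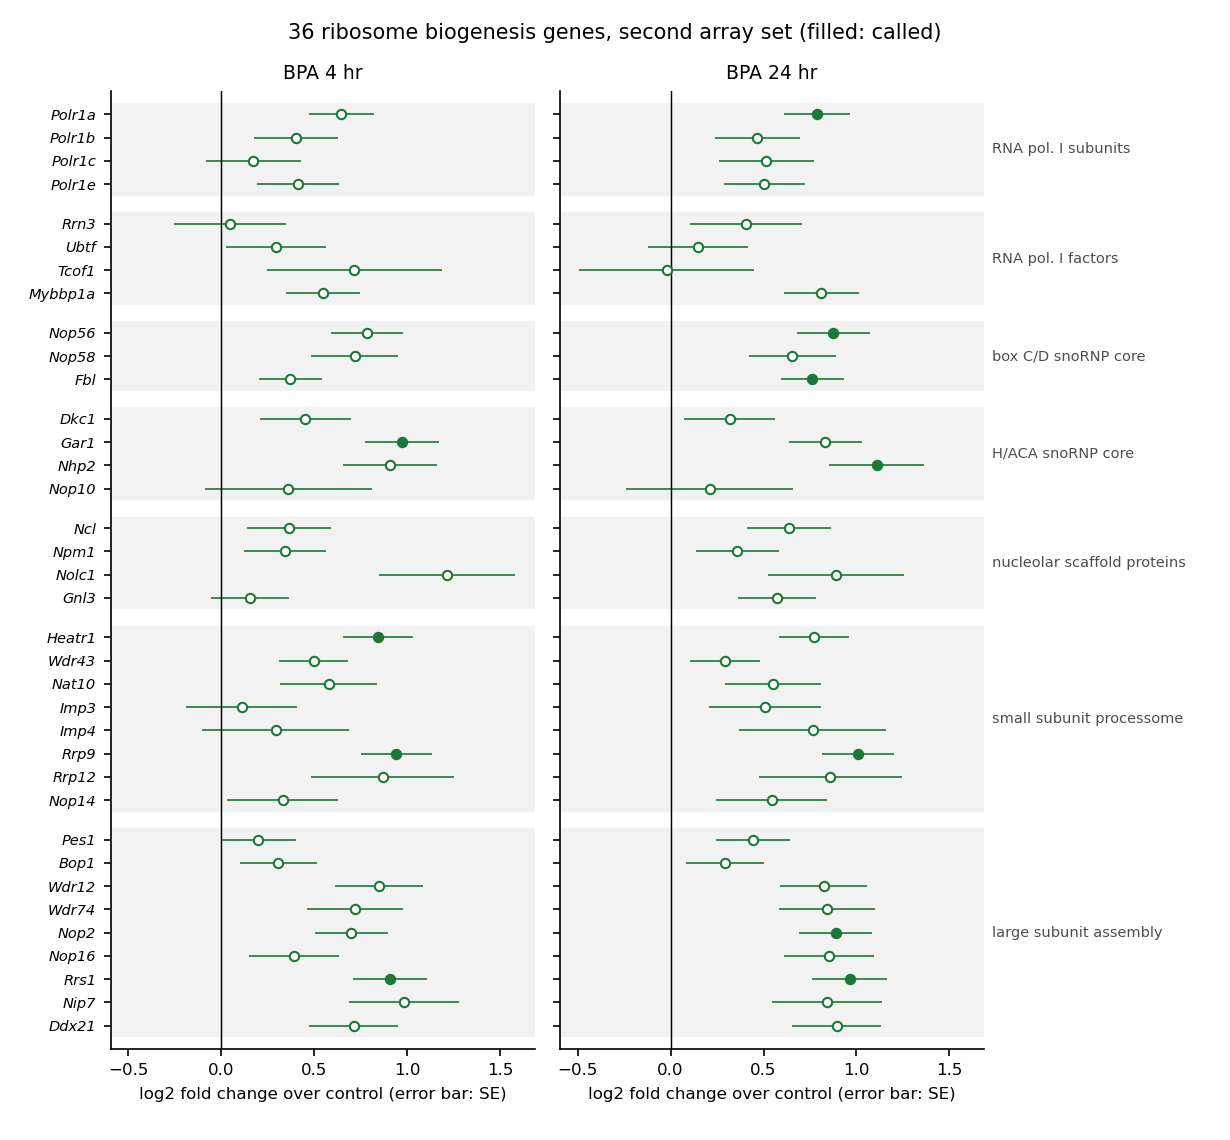
Log2 fold change of the 36 genes (x axis, relative to the untreated arrays of the second set, error bars SE) after BPA alone at 4 hr (left) and 24 hr (right), grouped by role on the y axis. Filled symbols passed the test, 4 at 4 hr and 7 at 24 hr, and all symbols but Tcof1 at 24 hr lie right of 0.

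Other genes of the same pathway were taken from lists by function and are described by their counts. At 4 hr of KBrO3 these are to be read against the 34.5% of all genes called higher and the 38.1% called lower. At 4 hr of KBrO3, 45 of 46 other small subunit factors rose and none fell (median 1.41), with Tsr1 at 2.70 and Pwp2 at 2.53 the highest. Of 52 other large subunit factors 49 rose and 1 (Nol7, at -0.28) fell (median 1.43), with Gtpbp4 at 2.91 and Nol9 at 2.56 the highest. The 14 other RNA polymerase I genes were mixed, with 8 higher and 3 lower. Among them Taf1c, of the promoter selectivity complex SL1, was at 2.05 and its partner Taf1b at -1.22. RNA polymerase III, which makes 5S ribosomal RNA and transfer RNA, had 7 of 9 subunits higher and 2 lower, with Polr3g at 2.59 and Polr3k at -0.49, and the RNA exosome, which trims the precursor, had 9 of 14 higher and 3 lower.

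At 24 hr of KBrO3, where 31.3% of all genes were higher and 38.1% lower, 39 of the other small subunit factors were higher and 1 lower (median 0.68), and 48 of the other large subunit factors were higher and 1 lower (median 0.63). With co-exposure, where 39.7% of all genes were higher and 40.7% lower at 4 hr and 34.5% and 38% at 24 hr, the counts were 46 higher and none lower and 49 higher and 1 lower at 4 hr (medians 1.52 and 1.61), and 43 and 51 higher with none lower at 24 hr (medians 0.80 and 0.79). BPA alone called 4 small subunit factors at 4 hr, with Rcl1 at 1.24 the highest, and 3 at 24 hr, with Rcl1 at 1.11. It called 3 large subunit factors at 4 hr, with Noc3l at 1.04 the highest, and 2 at 24 hr, Ppan at 0.91 and Noc2l at 0.90. All of these were higher than control, and no gene of the RNA polymerase I, exosome or RNA polymerase III lists was called after BPA alone. The shares called higher were 8.7% and 6.52% of the small subunit factors and 5.77% and 3.85% of the large subunit factors. At 4 and 24 hr, 3% and 1.83% of all genes were called higher (4.67% and 4.31% in either direction). The fold change was above 0 for 43 and 42 of the 46 small subunit factors (medians 0.39 and 0.37). It was above 0 for 49 of the 52 large subunit factors at each time (medians 0.42 and 0.34).

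The ribosomal proteins themselves moved less. At 4 hr of KBrO3, 65 of 79 rose and none fell, with a median log2 fold change of 0.36 and the highest value 0.80, for Rps26. At 24 hr 24 were higher and 26 lower, with a median of -0.05, against 31.3% and 38.1% of all genes. At 4 hr of co-exposure 42 were higher and 5 lower (median 0.19), against 39.7% and 40.7% of all genes. At 24 hr of co-exposure 46 were higher and 3 lower (median 0.22), against 34.5% and 38%. In co-exposed relative to KBrO3-only cells, 36 were lower and 3 higher at 4 hr (median -0.16), against 32.7% and 28.1% of all genes, and 67 were higher and none lower at 24 hr (median 0.26), against 28.5% and 21.9%. At 4 hr slide and BPA cannot be told apart. BPA alone called none of the 79 at either time, with medians of 0.19 and 0.37 and fold changes above 0 for 74 and 76.

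**Figure D5:**
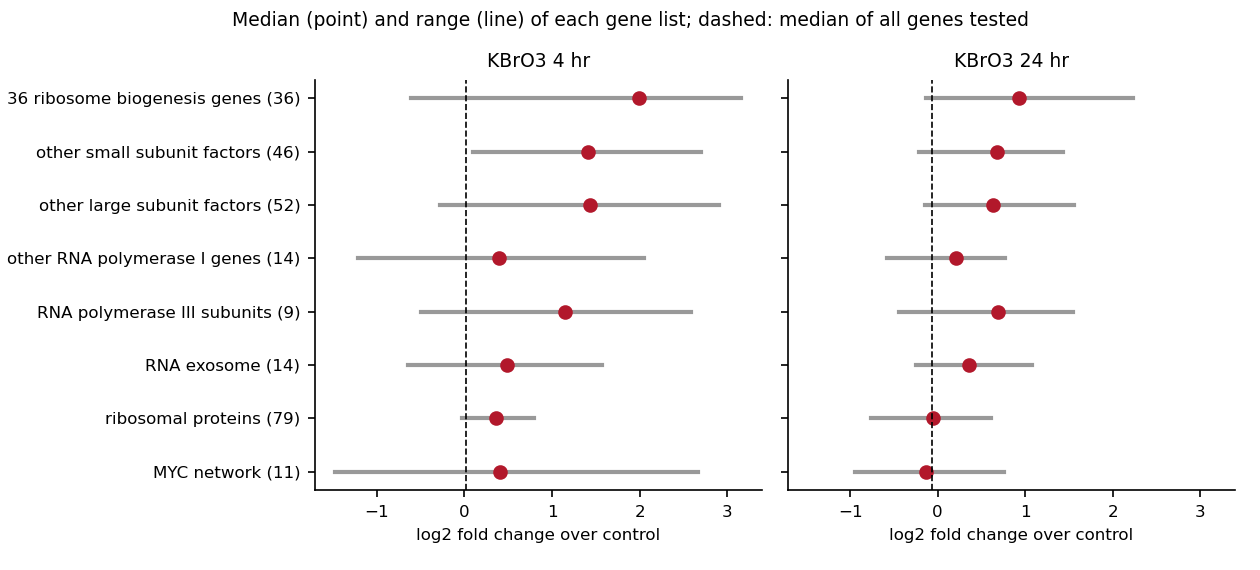
Median (point) and range (line) of the log2 fold change over control (x axis) of the 36 ribosome biogenesis genes and of 7 related gene lists (y axis, number of genes tested in parentheses), at 4 hr (left) and 24 hr (right) after KBrO3. The dashed line is the median of all genes tested. The 36 genes have a median of 2.00 at 4 hr and 0.93 at 24 hr, and the ribosomal proteins 0.36 and -0.05.

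Among the regulators, the MYC network list had 5 of 11 tested genes higher and 5 lower at 4 hr of KBrO3, where 34.5% of all genes were higher and 38.1% lower. Myc itself read 4.34, 4.38 and 4.42 after KBrO3 and 1.78, 1.66 and 1.69 in controls, a difference of 2.67 ± 0.060 (adjusted p = 2.40e-12). Mxd3 at -1.47 and Mxi1 at -1.23, which encode proteins that compete with MYC for its partner MAX, were lower, and the groups of arrays did not overlap for any of these genes. At 24 hr Myc was at 0.38, and the difference between 24 and 4 hr was -2.29.

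With co-exposure Myc was at 3.19 over control at 4 hr and 0.83 at 24 hr. BPA added to KBrO3 gave 0.52 at 4 hr, where slide and BPA cannot be told apart, and 0.45 at 24 hr, both called higher. After BPA alone Myc read 2.29, 2.71 and 2.27 at 4 hr and 2.41, 2.96 and 2.33 at 24 hr, against 1.05, 1.09 and 1.28 in controls, and was called higher at both times (1.28 ± 0.23, adjusted p = 0.017, and 1.43 ± 0.23, adjusted p = 0.013). All arrays with BPA alone were above the control arrays of that set, and all co-exposure arrays were above the KBrO3-only arrays of the same time. How the calls of Myc depend on the processing was not tested.

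MYC and MAX bind the letters CACGTG, called the E-box, and promoter sequences were therefore searched for them. The windows run from 250 bases before to 50 after the start site in RefSeq (GRCm38.p6), and 30 of the 36 genes have an entry. A gene with several windows, as 2 of them have, counts once if any window holds the letters. CACGTG, which reads the same on both strands, was found in 6 of 30 genes (20.0%), against 8.91% of 17492 protein-coding genes with a window. The related letters CACGCG were found, on either strand, in 11 of 30 (36.7%, against 13.7%), the GC box GGGCGG in 21 of 30 (70.0%, against 49.2%), and TGACNNNGC, the core of the antioxidant response element, in 1 of 30, Gar1 (3.33%, against 14.8%). Among the other small and large subunit factors with a window, CACGTG was found in 29.7% and 15.6% and CACGCG in 27.0% and 35.6%. The GC box was found in 64.9% and 71.1% of them, and TGACNNNGC in 8.11% and 11.1%. The motifs were counted separately, and a match is a string of letters in the window, not a bound site.

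The genes with CACGTG were Rrn3, Mybbp1a, Wdr43, Imp4, Pes1 and Nop2. It begins 215 and 48 bases before the start site of Rrn3, 60 before that of Nop2, 121 before that of Imp4, and 17 after that of Wdr43. The windows of these 4 genes, and that of Imp3, the gene that fell at 4 hr and whose window has none of these letters, are shown from 250 bases before the start site through the first 30 transcribed bases, on the strand of the gene, with CACGTG in capitals. They lie on the plus strand at chr16:13780449-13780728 (Rrn3), chr6:125131633-125131912 (Nop2), chr17:71615965-71616244 (Wdr43), chr1:34439579-34439858 (Imp4) and chr9:56937250-56937529 (Imp3).
Rrn3: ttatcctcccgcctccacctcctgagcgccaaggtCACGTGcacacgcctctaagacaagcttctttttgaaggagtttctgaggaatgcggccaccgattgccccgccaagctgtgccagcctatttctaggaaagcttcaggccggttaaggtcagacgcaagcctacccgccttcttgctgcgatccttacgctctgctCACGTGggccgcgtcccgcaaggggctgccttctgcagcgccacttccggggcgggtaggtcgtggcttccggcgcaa
Nop2: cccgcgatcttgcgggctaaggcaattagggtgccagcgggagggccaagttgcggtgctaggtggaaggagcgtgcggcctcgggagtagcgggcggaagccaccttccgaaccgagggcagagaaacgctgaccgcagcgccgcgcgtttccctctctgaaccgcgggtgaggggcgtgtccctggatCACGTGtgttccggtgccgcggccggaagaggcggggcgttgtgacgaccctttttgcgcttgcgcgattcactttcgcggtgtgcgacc
Wdr43: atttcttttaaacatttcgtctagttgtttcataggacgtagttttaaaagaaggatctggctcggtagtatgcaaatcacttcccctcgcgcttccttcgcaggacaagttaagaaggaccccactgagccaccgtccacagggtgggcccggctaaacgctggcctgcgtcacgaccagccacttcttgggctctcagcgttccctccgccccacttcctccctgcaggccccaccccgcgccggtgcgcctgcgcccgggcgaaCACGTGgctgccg
Imp4: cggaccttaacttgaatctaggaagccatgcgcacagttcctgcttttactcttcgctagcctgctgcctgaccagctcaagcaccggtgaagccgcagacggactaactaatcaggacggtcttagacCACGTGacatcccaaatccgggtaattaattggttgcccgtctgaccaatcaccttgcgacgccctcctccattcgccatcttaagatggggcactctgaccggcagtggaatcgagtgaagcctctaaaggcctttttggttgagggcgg
Imp3: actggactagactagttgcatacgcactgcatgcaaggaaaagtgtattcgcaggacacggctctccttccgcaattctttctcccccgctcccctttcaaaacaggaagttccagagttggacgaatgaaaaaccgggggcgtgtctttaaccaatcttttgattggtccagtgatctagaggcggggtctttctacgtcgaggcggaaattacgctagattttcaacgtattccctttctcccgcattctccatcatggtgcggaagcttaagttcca
Of the 6 genes with CACGTG, 6 rose at 4 hr of KBrO3, from 1.28 for Rrn3 to 2.73 for Nop2, and so did 22 of the 24 others with a window, Imp3 and Nop10 being the exceptions.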

How the data were processed

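Total RNA of 24 samples was hybridized to Agilent Whole Mouse Genome 4x44 one-color arrays. The deposited files hold the intensity of each spot as the authors' scanner software (Agilent Feature Extraction 9.5.3.1 for the first set and 12.0.0.7 for the second, per the file headers; 12.0 in the submitters' processing notes) wrote it, background-subtracted but not normalized between arrays. The deposited table of the whole series held the same intensity values (1080432 of 1080432 equal) and served as an alternative.

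Control spots were left out, log2 of the processed signal was taken minus the 75th percentile of the array, and a probe was tested if all 3 arrays of some group had it well above background, 27310 for set 1 and 31809 for set 2. Each set was fitted separately with limma 3.58.1 (R 4.3.3), and each treatment was compared with the untreated arrays of its own set. P-values were adjusted over all probes tested by the method of Benjamini and Hochberg. The methods' error-weighted ANOVA was not run. Its thresholds were applied to the limma p-values. Replicates are separate biological samples per the Methods, and precision is limited by there being 3 arrays in each group. Deviations of same-numbered arrays from their group means had a mean correlation of -0.029 for set 1, with 1 of 30 pairs over 0.1. For set 2 it was 0.0022, from -0.38 to 0.65 with 3 of 9 pairs over 0.1. Differently numbered arrays were not compared, so whether replicate numbers pair the samples is not decided, least of all for set 2. The fits were tested on simulated data.

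Alternatives were quantile normalization, scaling to the median, normexp background correction (on the mean spot signal for set 1 and the median for set 2), no filter, fits of the compared groups alone, slide and replicate blocks, the mean of all probes, and leaving out each array. Genes whose values are given per array are the 4 largest called rises and falls in each comparison with the first set's control, the 3 largest in each BPA comparison, at most 4 by size for the interaction, and from other lists the 2 largest in each direction. Imp4 and Nop10 at 4 hr of KBrO3 lie outside this rule and were chosen after their values were seen. Further genes are given by fold change to account for all 36. Gene names came from RefSeq annotation by accession, symbol or synonym, for 32724 of 41174 probes. The genes and lists were chosen with earlier results of these data known. Promoter windows were read from RefSeq (GRCm38.p6).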

Additional observations from a re-analysis of the deposited data

Results flagged for a closer look

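By the limma interaction test (adjusted p below 0.05), the BPA-added difference changed between 4 and 24 hr for 20 of the 36 genes. This share was close to the 57.4% of all genes tested, so the count is a description only. Normexp left 5 genes called and the thresholds of the Methods none. With the mean of all probes Nolc1 was at -0.13 and not called. Toward higher values at 24 hr, the log2 changes were 1.04 for Nat10, 0.98 for Npm1, 0.68 for Nop10, 0.64 for Ddx21, 0.59 for Nolc1, 0.55 for Gar1, 0.55 for Nop58, 0.53 for Nop56, 0.52 for Ubtf, 0.44 for Imp3, 0.36 for Gnl3, 0.33 for Polr1b, 0.29 for Nip7, 0.24 for Fbl and 0.14 for Polr1c. Toward lower values they were -1.13 for Wdr43, -0.42 for Polr1e, -0.41 for Nop14, -0.26 for Heatr1 and -0.25 for Wdr12. Of the 10 of these genes with several tested probes, 4 had all probes called in the same direction, and 1 had a probe called in the other. The co-exposure arrays of 4 hr shared no slide with the KBrO3-only arrays of 4 hr, so at that time slide and BPA cannot be told apart.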

How the results depend on the processing

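The counts of called genes in the comparisons of KBrO3 and co-exposure with control stayed within 1.5 times of the values given under every alternative, at 33 to 36 (KBrO3, 4 hr), 25 to 34 (KBrO3, 24 hr), 33 to 36 (co-exposure, 4 hr) and 26 to 36 (co-exposure, 24 hr). Those of BPA alone did not, and the cause was not tested. For BPA at 4 hr, 4 genes became 0 with scaling to the median, normexp, a fit of the compared groups alone, the slide block and the thresholds of the Methods, and 2 without the filter. For BPA at 24 hr, 7 genes became 1 with scaling to the median and without the filter, and 0 with normexp, a fit of the compared groups alone, the slide block and the thresholds of the Methods. Slide as a random block gave 4 and 9, and quantile normalization 4 and 5. Leaving out 1 array gave 0 to 3 and 0 to 2. For BPA added to KBrO3, the 20 genes at 4 hr became 5 with normexp, 13 with slide as a random block and 2 at the thresholds of the Methods. The 23 genes at 24 hr became 2 with normexp and 0 at those thresholds, and the 20 genes of the interaction 5 and 0. Leaving out 1 array gave 17 to 24, 20 to 29 and 18 to 26. At the thresholds of the Methods the comparison of 24 with 4 hr gave 24 genes for KBrO3 and 23 for co-exposure.

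With the replicate number as a block, BPA alone called 0 genes at 4 hr and 0 at 24 hr, and the other counts stayed within 1.5 times. Whether the numbers pair the samples is not decided by these arrays.

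Among changes called in the main fit or under the alternative, the sign turned in the following cases, and the cause was not tested. Turned signs that were called in neither fit are not listed. Under quantile normalization these were Nop10 at 4 hr of KBrO3 (-0.17, called lower); Polr1c (0.11), Ncl (0.045), Bop1 (0.057) and Wdr12 (0.070) from 4 to 24 hr of KBrO3; Polr1c (0.068) and Npm1 (0.19) from 4 to 24 hr of co-exposure; and Polr1c (-0.038) and Fbl (-0.066) in the interaction. Under scaling to the median they were Wdr12 (0.033) from 4 to 24 hr of KBrO3, then Polr1c (0.31), Polr1e (0.14), Tcof1 (0.017), Mybbp1a (0.34), Fbl (0.030), Nhp2 (0.037), Npm1 (0.10), Pes1 (0.039), Bop1 (0.24), Wdr12 (0.098) and Wdr74 (0.13) from 4 to 24 hr of co-exposure, and Ncl (0.30), Heatr1 (0.053) and Wdr12 (0.066) in the interaction. Of those under scaling to the median, the rises of Polr1c and Mybbp1a from 4 to 24 hr of co-exposure and that of Ncl in the interaction were called. Under quantile normalization the rises of Polr1c from 4 to 24 hr of KBrO3 and of Npm1 from 4 to 24 hr of co-exposure were called. With normexp Imp4 turned at 24 hr of KBrO3 (-0.57) and of co-exposure (-0.32). With the mean of all probes Npm1 turned at 24 hr of KBrO3 (0.28), and Pes1 at 4 hr of BPA added (0.55) and in the interaction (-0.51). Each of these was called. Polr1a (-0.033) and Nolc1 (-0.039) at 24 hr of BPA added, and Nolc1 in the interaction (-0.13), turned without a call. The fixed slide block could not be fitted for KBrO3 at 24 hr or co-exposure against control, for BPA added at 4 hr, for 24 against 4 hr of KBrO3 or for the interaction, whose groups are not linked through shared slides.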
